A study of Mus musculus with 12 samples.

Results

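Resident macrophages of the mouse bone marrow were compared with the monocytes of the same tissue. Every one of the 12 libraries of the series entered the comparison: 6 of macrophages, from the groups BM_embTRMp and BM_adTRMp, and 6 of monocytes, from the groups BM_adMono_Ly6Chi and BM_adMono_Ly6Clo. Members were chosen by the cell type in the sample labels, and the 4 groups of 3 replicates were weighted equally. All cells came from female C57BL/6J mice, 8 weeks old per the study's methods. The mice carried Rank-cre with a Rosa26 eYFP reporter, in which Cre expressed from the Rank locus marks macrophages of embryonic origin. BM_embTRMp cells were eYFP-positive (embryonic) and BM_adTRMp cells eYFP-negative (derived from adult hematopoietic stem cells). Macrophages were gated as CD45+ and F4/80-high cells positive for CD206 and VCAM1, and monocytes as CD11b+ F4/80-low cells split by Ly6C. An eYFP-negative gate holds every unlabelled cell that passes the other gates, so this group is defined by the absence of a label. No source states whether replicates came from separate mice, and p-values therefore measure the spread between these samples only.

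Monocytes are made in the marrow, leave it through the blood and enter tissues, and they carry the receptors, adhesion molecules and motile cytoskeleton needed for that route. Resident macrophages stay in place. In the marrow they form the centre of erythroblastic islands, in which red cell precursors attach to a macrophage that takes up the expelled nuclei, and they clear aged cells, break down heme and return iron to the circulation. Complement C1q and bridging proteins such as Gas6 mark dying cells for uptake, and lysosomal enzymes digest what has been taken in.

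Values are TPM (transcript abundance scaled by gene length and to a fixed sum in each library) unless stated otherwise. Log2 fold changes are macrophages minus monocytes, with the standard error of the DESeq2 fit (SE). In bulk libraries a lower share of expressing cells and less RNA per cell cannot be told apart. Total counts ran from 26390927 to 48618187 per library. Pearson's r between replicates, on log2 of normalized counts + 1 over the genes tested, was 0.871 and 0.874 for the pairs that involve Ly6Clo replicate 2, 0.927 and 0.931 for those of eYFP+ replicate 1, and from 0.935 to 0.961 for all others. The same 2 libraries had the smallest share of reads in the GC-richest quartile of genes, at 26.1% and 28%, against 29.5% to 34.4% elsewhere.

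Genes that encode the gated proteins were examined as a check of the labels, and their differences are not findings. Vcam1 ran from 8965 to 14369 TPM in the 6 macrophage libraries (median 10008) and from 14.4 to 90.2 TPM in the 6 monocyte libraries (median 22.9). Mrc1, which encodes CD206, ran from 344 to 1820 TPM against 5.72 to 47.0 TPM, and Adgre1, which encodes F4/80, from 1184 to 1984 TPM against 233 to 569 TPM. Itgam, which encodes CD11b, was at 0.205 to 2.47 TPM in macrophages and 22.4 to 103 TPM in monocytes. Ly6c2 ran from 0.231 to 23 TPM in macrophages and from 32.4 to 6963 TPM in monocytes. For each of these genes the cell types did not overlap. Ly6c1 and Ly6c2 are near-identical copies whose levels are uncertain, because reads that match both are lost. Csf1r, which encodes the receptor for the growth factor CSF1, overlapped entirely at 517 to 1327 TPM and 159 to 1867 TPM (log2 fold change -0.33 ± 0.45 SE, DESeq2 adjusted p = 0.63).

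Across the transcriptome, 7927 of 22028 tested genes (36% of those tested) differed at a DESeq2 adjusted p under 0.05. The share was 20.7% for genes higher in macrophages (4556 genes) and 15.3% for genes lower (3371 genes), and each count of list members below is to be read against these shares. edgeR's quasi-likelihood test called 3801 genes higher and 3025 lower, of which DESeq2 also called 3782 and 2977. The median log2 fold change of all tested genes was 0.08. At least 2-fold differences were found for 3722 higher and 2457 lower genes, and at least 16-fold differences for 1027 and 544. A stricter set was formed from genes that passed the test in the same direction in all 4 pairwise comparisons of a macrophage with a monocyte group. It held 1717 genes higher in macrophages (8.43% of 20363 genes tested in all 4) and 1147 lower (5.63%). The 6 and 6 libraries did not overlap in 1659 of the 1717 genes and in 958 of the 1147. Of all genes tested, 11.9% were without overlap and higher in macrophages, and 6.03% without overlap and lower.

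Genes higher in all 4 pairwise comparisons took from 27.3% to 32.8% of all TPM in macrophage libraries and from 3.76% to 4.86% in monocyte libraries. Genes lower in all 4 took from 5.96% to 7.75% in macrophages and from 22.4% to 32.3% in monocytes. These shares describe sets that were chosen on the same values. Within the cell types, comparisons of 3 with 3 libraries in the same fit called 8.82% of 21195 genes between Ly6Chi and Ly6Clo monocytes (1870 genes) and 2.07% between eYFP+ and eYFP- macrophages (439 genes), and edgeR called 829 and 64 genes. The count between macrophages was 228 without eYFP- replicate 3, 873 without Ly6Clo replicate 2, and 1178 in a fit blocked on replicate number. The count between monocytes was 1228 and 1208 without Ly6Chi replicates 1 and 2. These counts are not comparable in power with those of 6 against 6 libraries.

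**Figure D1:**
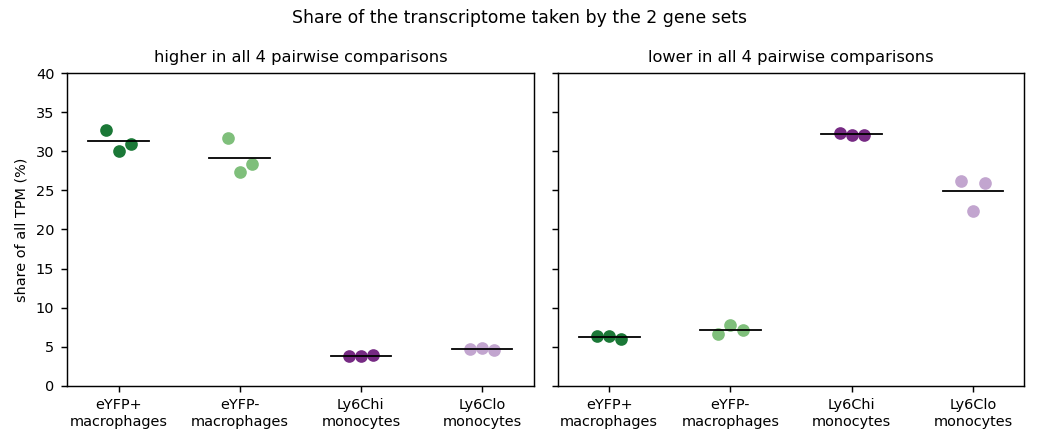
Share of all TPM (%, vertical axis) taken by genes higher (left) and lower (right) in macrophages in all 4 pairwise comparisons; each point is a library, lines are group means. The macrophage libraries sit between 27.3% and 32.8% on the left and the monocyte libraries between 3.76% and 4.86%; the sets were chosen on these values.

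The 10 most abundant transcripts of the macrophage set, by TPM among genes at least 4-fold higher, were C1qb, C1qc, Vcam1, Fcna, Ctsd, Ctsb, Trf, Ftl1, Ftl1-ps1 and Hba-a1, of which Vcam1 was fixed by the gate. C1qb, a chain of the complement protein that recognises immune complexes and dying cells, ran from 12654 to 15084 TPM in macrophages (median 13929) and from 22.9 to 1307 TPM in monocytes (median 238). Fcna encodes ficolin A, a secreted lectin that starts the complement cascade on sugar patterns. Its level was 6030 to 8888 TPM against 6.03 to 60.8 TPM (log2 fold change 8.40 ± 0.22 SE, edgeR adjusted p = 5.2e-09). Ftl1 and its copy Ftl1-ps1 share nearly all of their sequence, and how reads divide between the pair is uncertain. Hba-a1 is a globin gene of red cells and is described with the erythroid markers.

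In monocytes the same rule gave Lyz2, S100a8, Ifitm3, S100a9, Cd52, Ccl6, Coro1a, Ifitm2, Ifi27l2a and Ngp. Lyz2, which encodes the lysozyme of myeloid cells, was the highest of them at 29574 to 69860 TPM (median 51100). Macrophages held 3874 to 6824 TPM of it, so the gene remained abundant there while the cell types did not overlap (log2 fold change -3.31 ± 0.22 SE, DESeq2 adjusted p = 9.1e-49).

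**Figure D2:**
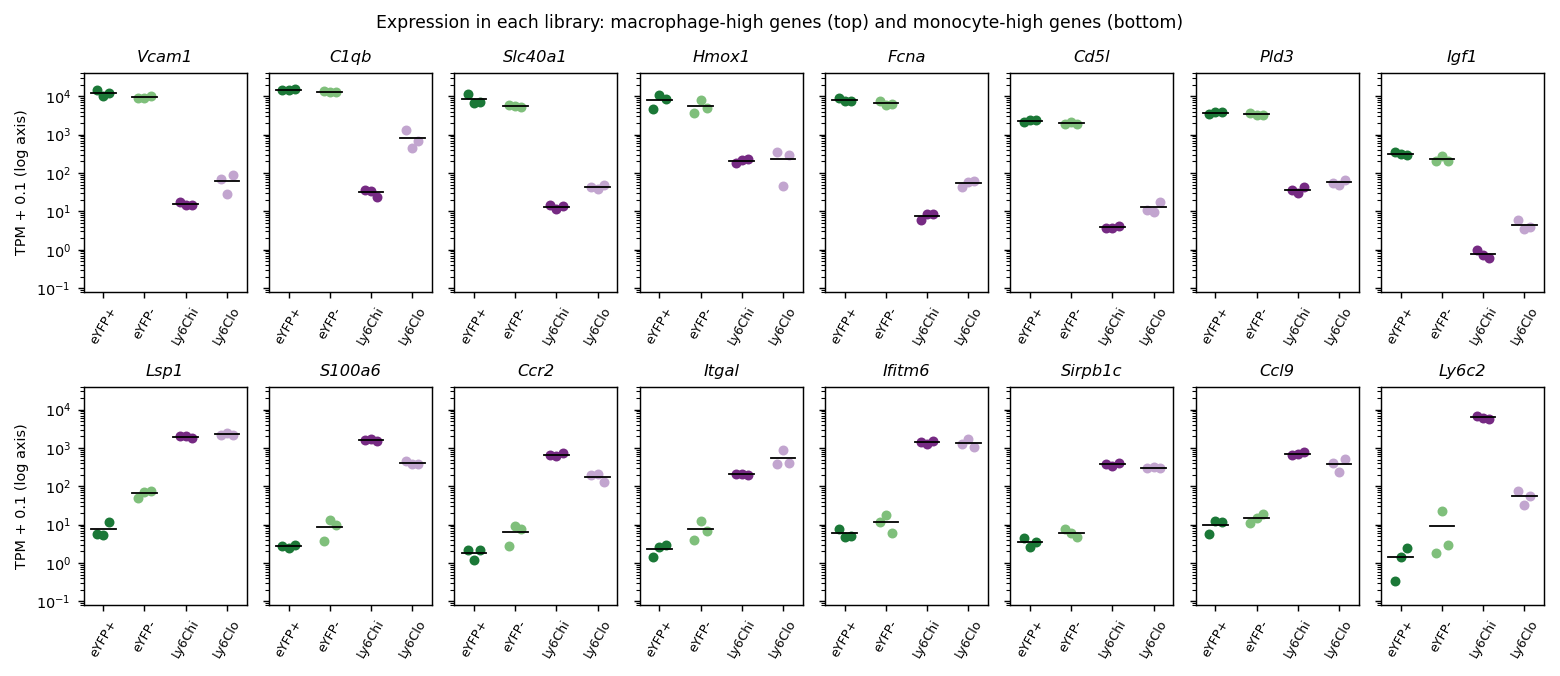
TPM + 0.1 (log axis) of 8 macrophage-high genes (top row) and 8 monocyte-high genes (bottom row) in the 4 groups; points are the 3 libraries of a group and lines are means. The 6 macrophage and 6 monocyte libraries do not overlap in any panel, and among monocyte-high genes Lsp1 is higher in eYFP- than in eYFP+ macrophages (means 66.2 and 7.44 TPM). Vcam1 and Ly6c2 encode gated proteins, and the other genes were chosen with earlier results of these data known. The lack of overlap in these panels is therefore no finding.

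Most genes of the erythroblastic island macrophage were higher in macrophages. The gate fixed the direction of 3 of them, Vcam1, Mrc1 and Adgre1. Of the other 13 tested, 10 were higher and 0 lower, by DESeq2 and by edgeR, and the median log2 fold change was 4.83; with the gated genes 13 of 16 were higher (median 5.40). The 10 included Epor, the erythropoietin receptor, at 122 to 222 TPM (median 195) in macrophages and 0 to 5.25 TPM (median 1.12) in monocytes. Spic, the transcription factor of iron-recycling macrophages, ran from 1520 to 3235 TPM against 4.78 to 72.3 TPM, 116-fold higher (log2 fold change 6.86 ± 0.31 SE, DESeq2 adjusted p = 2.6e-106). Dnase2a, the lysosomal nuclease that digests the DNA of expelled nuclei, was at 165 to 342 TPM and 3.26 to 43.9 TPM. Timd4, a receptor for the phosphatidylserine of dying cells, was at 95.1 to 181 TPM and 0.108 to 3.42 TPM. Values of the 2 cell types did not overlap for any of these 4 genes. Maea, Il4ra and Itgav did not pass the test. Klf1, also on the list, is a transcription factor of red cell precursors as well, and was higher in eYFP- than in eYFP+ macrophages (means 164 and 26.5 TPM, DESeq2 adjusted p = 0.0018).

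Iron and heme recycling genes were higher in 23 of 30 tested and lower in 4 (edgeR 20 and 4), with a median of 1.85. Along the route of heme, the receptor Cd163, which takes up hemoglobin bound to haptoglobin, ran from 302 to 1468 TPM in macrophages and from 1.76 to 14.1 TPM in monocytes. Slc48a1, which carries heme out of the phagolysosome, was at 511 to 1013 TPM against 23.9 to 95.7 TPM. Hmox1, the enzyme that opens the heme ring, ran from 3716 to 10668 TPM (median 6524) against 44.9 to 349 TPM (median 225) (log2 fold change 4.81 ± 0.40 SE, DESeq2 adjusted p = 6.8e-31). Its constitutive relative Hmox2 did not pass the test, at 133 to 187 TPM and 94.5 to 154 TPM (0.19 ± 0.20 SE, DESeq2 adjusted p = 0.50).

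Downstream of heme breakdown, Blvrb, a biliverdin reductase, was 12.8-fold higher and the ferritin heavy chain gene Fth1 3.98-fold higher. Slc40a1, which encodes ferroportin, the exporter of iron from cells, ran from 5133 to 11503 TPM in macrophages (median 6361) and from 11.2 to 48.7 TPM in monocytes (median 26). It was 273-fold higher (log2 fold change 8.09 ± 0.23 SE, DESeq2 adjusted p = 1.7e-257). Trf, which encodes the iron carrier transferrin, ran from 5966 to 11744 TPM against 487 to 1509 TPM. Bach1, a repressor of Hmox1 that heme inactivates, was among the 4 genes lower in macrophages, at 1.39 to 2.82 TPM against 6.87 to 14.0 TPM (log2 fold change -2.45 ± 0.29 SE, DESeq2 adjusted p = 1.3e-15). The others were Fbxl5, Flvcr1 and Nfe2l2.

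Complement components, regulators and receptors were higher in 12 and lower in 3 of 22 tested genes, by both tests, with a median of 3.80. C1qa, C1qb and C1qc together make C1q, and all 3 were higher, by 92.4-fold, 82.2-fold and 166-fold. Within monocytes the C1q genes were themselves unequal: C1qb averaged 31.3 TPM in Ly6Chi and 809 TPM in Ly6Clo libraries. Cfp, which encodes properdin, the stabiliser of the alternative pathway convertase, ran from 4565 to 7320 TPM in macrophages and from 205 to 438 TPM in monocytes. Cd55, a regulator that protects the host cell, was at 47.0 to 86.3 TPM against 0.0924 to 2.22 TPM. Vsig4, a receptor for C3 fragments, was at 39.6 to 80.1 TPM against 0 to 1.16 TPM. The genes lower in macrophages included C3 itself (4.02 to 37.7 TPM against 22.6 to 538 TPM) and C5ar1, the receptor for the chemoattractant C5a (12.4 to 22.1 TPM against 45.9 to 167 TPM). The C3 values overlapped between the cell types.

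Genes for the uptake of apoptotic cells were higher in 11 and lower in 4 of 22 tested (edgeR 10 and 4), with a median of 1.33. The receptor kinase Axl ran from 998 to 3597 TPM in macrophages (median 2602) and from 7.06 to 113 TPM in monocytes (median 88.5). Its relative Mertk ran from 132 to 598 TPM against 0.0713 to 8.05 TPM. Gas6, the ligand that bridges both to phosphatidylserine, was at 16.8 to 166 TPM against 0 to 17.4 TPM, with a small overlap (3.95 ± 1.20 SE, DESeq2 adjusted p = 0.0039, edgeR adjusted p = 0.019). Cd5l, a secreted scavenger protein of tissue macrophages, ran from 1868 to 2432 TPM against 3.52 to 17.9 TPM, 291-fold higher. Mfge8, another bridging protein, and Itgb3, a chain of its receptor, were lower in macrophages (log2 fold changes -2.29 ± 0.36 and -3.43 ± 0.50 SE, DESeq2 adjusted p = 2.2e-09 and 1.3e-10).

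Scavenger and endocytic receptors were higher in 11 and lower in 3 of 23 tested genes (edgeR 10 and 2; median 0.61), or in 10 and 3 of 22 without the gated gene Mrc1 (median 0.50). The hyaluronan and phosphatidylserine receptor Stab2 ran from 61.8 to 132 TPM in macrophages and from 0.157 to 1.31 TPM in monocytes. Marco, a class A scavenger receptor, ran from 44.7 to 70.8 TPM in macrophages. It was listed at 0 in all 3 Ly6Chi libraries and reached at most 3.76 TPM in Ly6Clo monocytes, and no fold is given for it. Msr1, the founding gene of the same class, did not pass the test, with 10.003 to 56.8 TPM against 12.7 to 117 TPM. Olr1, a receptor for oxidised lipoprotein, was lower in macrophages, at 0 to 0.695 TPM against 4.55 to 9.19 TPM.

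Lysosomal genes were higher in part. Among cathepsins, the proteases of the lysosome, 9 of 14 were higher and 1 lower (edgeR 8 and 1; median 1.44). Their summed level ran from 21426 to 29449 TPM in macrophages and from 8616 to 10369 TPM in monocytes. Ctsd made up much of that, at 6276 to 9550 TPM (median 7203) against 235 to 451 TPM (median 312) (log2 fold change 4.45 ± 0.20 SE, DESeq2 adjusted p = 3.4e-109). Ctss, which trims the invariant chain for antigen presentation, overlapped between the cell types at 3085 to 5449 TPM and 4327 to 5408 TPM (-0.43 ± 0.22 SE, DESeq2 adjusted p = 0.12). Ctsk, the collagen-degrading cathepsin of osteoclasts, was lower in macrophages, and its monocyte values were split: means of 0.448 TPM in Ly6Chi and 95.9 TPM in Ly6Clo.

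Hydrolases and membrane proteins of the lysosome were higher in 28 and lower in 6 of 51 tested genes, by both tests (median 0.78). Pld3, a nuclease that degrades single-stranded nucleic acids in the lysosome, ran from 3194 to 4009 TPM in macrophages (median 3571) and from 30.4 to 66.7 TPM in monocytes (median 45.8). Its relative Pld4 lay on the other side, at 581 to 1036 TPM in macrophages and 1565 to 2587 TPM in monocytes (log2 fold change -1.30 ± 0.27 SE, DESeq2 adjusted p = 1.1e-05). Pla2g15, a lysosomal phospholipase, was 10.2-fold higher, the acid phosphatase Acp2 9.22-fold and the acid lipase Lipa 4.86-fold. Of the 18 tested subunits of the proton pump that acidifies the lysosome, 4 were higher and none lower (edgeR 4 and 1; median 0.23). The share of pump genes higher was 22.2%, near the 20.7% of all genes tested. Without the 2 libraries that stood apart the pump counts were 8 higher and 1 lower.

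Promoters of lysosomal genes often hold the motif TCACGTG, which transcription factors of the Mitf and Tfe family bind. It was sought on both strands in the 300-base RefSeq promoter windows (GRCm38.p6, 250 bases before to 50 after the gene start). The motif stood in 4.29% of the windows of 27025 genes and in 6.39% of those of genes tested. It stood in 9 of 40 hydrolase and membrane protein genes (22.5%) and in 4 of 13 proton pump genes (30.8%). Across the lysosomal lists 6 of 30 genes higher in macrophages held it (20%) and 9 of 32 not higher (28.1%), and the share was not larger among the genes that were higher. Stretches upstream of the start of 4 genes that were higher in macrophages and hold it are shown to let the motif be seen in its context, with the motif or its reverse complement in capitals.
Ctsd, chr7:142388036-142388077, minus strand: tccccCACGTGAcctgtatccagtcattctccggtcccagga
Lamp1, chr8:13159069-13159139, plus strand: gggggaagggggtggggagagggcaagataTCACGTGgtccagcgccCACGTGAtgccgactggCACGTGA
Glb1, chr9:114400999-114401065, plus strand: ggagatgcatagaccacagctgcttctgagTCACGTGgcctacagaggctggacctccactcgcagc
Naglu, chr11:101069990-101070056, plus strand: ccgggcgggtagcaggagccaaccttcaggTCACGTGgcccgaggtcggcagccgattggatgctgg

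Of these 4 genes, Lamp1, a membrane protein of the lysosome, ran from 703 to 2434 TPM in macrophages and from 276 to 1123 TPM in monocytes (log2 fold change 1.30 ± 0.31 SE, DESeq2 adjusted p = 0.0002). Glb1, a galactosidase, and Naglu, a glucosaminidase, were 3.46-fold and 3.29-fold higher, and neither overlapped between the cell types.

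Of 22 transcription factors linked to macrophages, 10 were higher and 9 lower, by both tests (median -0.03). The higher genes included Spic, Nr1h3, Maf, Tfec and Pparg. Nr1h3, the oxysterol receptor LXR alpha, ran from 312 to 374 TPM in macrophages (median 329) and from 4.62 to 42.2 TPM in monocytes (median 16.7). Maf, which holds back proliferation of macrophages, was at 35.6 to 55.8 TPM against 1.06 to 6.66 TPM. Pparg, a nuclear receptor of lipid handling, separated the monocyte groups as well, with means of 4.55 TPM in Ly6Chi and 160 TPM in Ly6Clo against 315 and 355 TPM in the macrophage groups. Spi1, the myeloid master regulator PU.1, was lower in macrophages, at 138 to 384 TPM against 452 to 733 TPM (-1.18 ± 0.28 SE, DESeq2 adjusted p = 0.00015). Runx3 and Irf4 were lower too.

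Of 30 monocyte transcription factors, 19 were lower in macrophages and 4 higher (edgeR 18 and 4), with a median of -1.31. Nfil3 ran from 1.88 to 9.93 TPM in macrophages and from 66.9 to 154 TPM in monocytes. Klf4, a factor of monocyte differentiation, was at 1.01 to 1.24 TPM against 6.82 to 28.5 TPM (log2 fold change -3.68 ± 0.24 SE, DESeq2 adjusted p = 7.9e-50). Nr4a1, the factor of Ly6Clo monocytes, ran from 15.4 to 30.6 TPM in macrophages and averaged 102 TPM in Ly6Chi and 608 TPM in Ly6Clo libraries. Higher in macrophages were Tcf7l2, Id2, Irf8 and Egr1. Id2 ran from 947 to 1169 TPM against 139 to 239 TPM, while its relative Id3 was lower, at 1.19 to 10.3 TPM against 5.63 to 39.0 TPM with overlap.

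Niche and growth factor genes were higher in 15 and lower in 5 of 33 tested (edgeR 14 and 5; median 1.45). Igf1, a growth factor for bone and blood cells, ran from 206 to 360 TPM in macrophages (median 284) and from 0.514 to 5.69 TPM in monocytes (median 2.12), 150-fold higher (log2 fold change 7.23 ± 0.22 SE, DESeq2 adjusted p = 5.3e-241). Kitl, the stem cell factor, was at 10.2 to 52.5 TPM against 0.0518 to 1.17 TPM. Pdgfc and Fgf1, growth factors of mesenchymal cells, were at 49.5 to 82.1 TPM and 41.6 to 80.1 TPM, and at most 0.706 and 1.12 TPM in monocytes. Bmp2, a bone-forming factor, was at 6.29 to 51.9 TPM against 0 to 0.748 TPM. Values of these 5 genes did not overlap between the cell types. Cxcl12, the chemokine that holds stem cells in the marrow, did not pass (6.07 to 62.9 TPM against 0.428 to 28.6 TPM, DESeq2 adjusted p = 0.27). Csf1 did not pass either, with at most 1.71 TPM in macrophages and 2.01 TPM in monocytes. Vegfc, Sema4a, Nrg1, Jag1 and Hgf were lower in macrophages.

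Cytokines and chemokines went both ways: 11 higher and 6 lower of 30 tested (edgeR 9 and 6; median 0.78). Il18 ran from 659 to 990 TPM in macrophages and from 37.4 to 88.1 TPM in monocytes. Il18bp, the secreted antagonist of the same cytokine, ran from 275 to 479 TPM against 7.48 to 10.7 TPM, 37.3-fold higher. Il1a was at 52.3 to 100 TPM against 0 to 1.21 TPM, whereas Il1b was lower in macrophages, at 8.59 to 31.1 TPM against 18.3 to 170 TPM. The antagonist of both, Il1rn, was lower as well, at 0.365 to 4.36 TPM against 8.09 to 28.2 TPM. Il10, which dampens inflammation, was low but higher in macrophages, at 3.61 to 10.4 TPM against 0 to 0.633 TPM. Ccl9 ran from 5.76 to 18.6 TPM in macrophages and from 243 to 797 TPM in monocytes, 47.0-fold lower in macrophages.

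Lipid and cholesterol genes were higher in 19 and lower in 9 of 38 tested, by both tests (median 0.87). Among enzymes of eicosanoid synthesis, Ptgs1, the cyclooxygenase that starts prostaglandin synthesis, ran from 184 to 345 TPM in macrophages and from 3.19 to 22.4 TPM in monocytes. Hpgds, the synthase of prostaglandin D2, ran from 226 to 494 TPM against 0.640 to 17.2 TPM. The leukotriene synthesis genes Alox5 and Alox5ap were lower in macrophages. Alox5 was at 10.1 to 17.9 TPM against 25 to 103 TPM, and Alox5ap, its activating protein, at 6.68 to 70.8 TPM against 775 to 1620 TPM. Alox5ap was 47.0-fold lower (log2 fold change -5.55 ± 0.35 SE, DESeq2 adjusted p = 3.1e-55). The cholesterol exporter Abca1 was 14.2-fold higher in macrophages and the lipoprotein lipase Lpl 7.65-fold.

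Trafficking genes showed what monocytes held instead. Of 27 tested, 19 were lower in macrophages and 5 higher (edgeR 18 and 5 of these), with a median of -2.90. Ccr2, the chemokine receptor by which monocytes leave the marrow, ran from 1.10 to 8.91 TPM in macrophages (median 2.42) and from 132 to 723 TPM in monocytes (median 418), 112-fold lower in macrophages. Itgal, the integrin chain of LFA-1, was at 1.37 to 12.6 TPM against 192 to 880 TPM. Ceacam1, an adhesion molecule, was at 0.549 to 3.51 TPM against 89.3 to 334 TPM. S1pr5, a receptor for sphingosine-1-phosphate by which Ly6Clo monocytes leave the marrow, was at 0 to 1.90 TPM against 29.9 to 511 TPM. All 4 were without overlap. On the other side, Fpr1, a receptor for bacterial formyl peptides, ran from 507 to 912 TPM in macrophages and from 7.80 to 54.2 TPM in monocytes. Itga4, which pairs into the integrin that binds VCAM1, ran from 3.50 to 11.3 TPM in macrophages against 25.9 to 56.0 TPM.

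Genes of the actin cytoskeleton were lower in 29 and higher in 2 of 43 tested (edgeR 28 and 1), with a median of -1.12, and lower in 37 without the 2 libraries that stood apart. Lsp1, an F-actin binding protein of leukocytes, ran from 5.15 to 76.2 TPM in macrophages (median 30.6) and from 1851 to 2509 TPM in monocytes (median 2121) (log2 fold change -6.71 ± 0.22 SE, DESeq2 adjusted p = 2.5e-194). Coro1a, a coronin of hematopoietic cells, ran from 9.67 to 159 TPM against 674 to 3253 TPM. Capg, an actin-capping protein, was at 8.19 to 25.1 TPM against 80.3 to 994 TPM. The general gene Actb did not pass the test (995 to 4000 TPM against 715 to 6232 TPM, DESeq2 adjusted p = 0.19).

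S100 proteins and annexins, which bind calcium, were lower in 10 and higher in 2 of 17, by both tests (median -0.74). S100a6 ran from 2.44 to 13.1 TPM in macrophages and from 372 to 1713 TPM in monocytes, and S100a4 from 0.382 to 5.35 TPM against 29.5 to 1262 TPM, 338-fold lower in macrophages. S100a16 and S100a1 were higher in macrophages. S100a8 and S100a9 are also on the list of neutrophil and precursor markers, which summed to 7134 to 28128 TPM in monocytes against 168 to 2933 TPM in macrophages, and the part of neutrophils in these values was not tested.

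Lsp1, Itgal and Ccr2 were lower in eYFP+ than in eYFP- macrophages as well, by DESeq2. Lsp1 averaged 7.44 and 66.2 TPM, Itgal 2.21 and 7.78 TPM, and Ccr2 1.74 and 6.45 TPM in the eYFP+ and eYFP- groups. The neutrophil and precursor markers had summed levels of 168 to 251 TPM in eYFP+ and 298, 2933 and 966 TPM in eYFP- replicates 1, 2 and 3, so that 1 library set the upper limit. Their part in these values was not tested. In each of these 3 genes the highest eYFP- library was below the lowest monocyte library.

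Sensors of microbes divided between the cell types, with 10 higher and 14 lower of 34 tested (edgeR 9 and 14; median -0.51). Tlr4, the receptor for lipopolysaccharide, ran from 86.5 to 219 TPM in macrophages and from 13.7 to 27.5 TPM in monocytes. Its co-receptor Cd14 ran from 380 to 658 TPM against 53.5 to 222 TPM. The C-type lectins Clec4e and Clec4d, which sense fungal and mycobacterial glycolipids, were lower in macrophages, at 0 to 2.46 TPM against 48.2 to 206 TPM and 0.524 to 3.10 TPM against 8.58 to 72.4 TPM. The related Clec4n, which encodes Dectin-2, was 5.36-fold higher. Interferon-stimulated genes were lower in 13 and higher in 4 of 39 (edgeR 13 and 3; median -0.24). Ifitm3 and Ifitm6, of the family that blocks virus entry, were at 357 to 707 TPM against 4361 to 8312 TPM and at 4.74 to 17.8 TPM against 1084 to 1667 TPM. Isg15 and Irf7 did not pass (DESeq2 adjusted p = 0.78 and 0.54).

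Surface receptors with inhibitory or activating tails were split, with 11 of 28 higher and 10 lower (edgeR 10 and 10; median 0.18). Sirpa, the inhibitory receptor for CD47, ran from 843 to 1752 TPM in macrophages and from 97.1 to 513 TPM in monocytes. The related Sirpb1c ran from 2.48 to 7.59 TPM against 302 to 401 TPM, but members of the Sirpb1 family share sequence and their counts are uncertain. Trem2 was 2.30-fold higher (83.6 to 228 TPM against 40.05 to 83.3 TPM), and Trem1, which amplifies inflammation, was 42.6-fold lower (0.136 to 0.742 TPM against 5.79 to 44.9 TPM).

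Of 10 Fc receptor list genes, 4 were higher and 1 lower, by both tests (median 1.26). One of the 4, Fcna, is a ficolin and no Fc receptor. Fcgrt, the neonatal receptor that recycles immunoglobulin, and Fcgr1 were 7.40-fold and 3.94-fold higher, and the inhibitory Fcgr2b was 6.00-fold lower. Among growth factor and cytokine receptors 5 of 28 were higher and 13 lower (edgeR 4 and 13; median -0.44). Csf3r, Csf2ra and Il17ra were lower in macrophages, at 27.5 to 47.6 TPM against 72.2 to 223 TPM, 64.9 to 260 TPM against 528 to 659 TPM, and 4.47 to 16.3 TPM against 45.0 to 224 TPM.

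Antigen presentation genes had no common direction. Of 16 genes for class II presentation, 3 were higher and 5 lower, by both tests (median -0.09). The shares were 18.75% higher and 31.25% lower, beside 20.7% and 15.3% of all genes tested. H2-Ab1 and Cd74, a class II chain and the invariant chain, did not pass the test (log2 fold changes -0.15 ± 0.35 and -0.03 ± 0.36 SE, DESeq2 adjusted p = 0.79 and 0.96). Their monocyte values enclosed those of macrophages: H2-Ab1 averaged 1233 TPM in Ly6Chi, 13738 TPM in Ly6Clo, 3330 TPM in eYFP+ and 4787 TPM in eYFP- libraries. The Ly6Clo libraries were unequal. Summed over the class II list, replicate 2, which stood apart, held 48756 TPM, and replicates 1 and 3 held 30672 and 27070 TPM. Macrophage libraries held at most 24617 TPM. Cd86, a costimulatory ligand for T cells, was higher in macrophages, at 390 to 878 TPM against 33.6 to 115 TPM. Class I genes were higher in 4 and lower in 4 of 20, by both tests (median -0.12). These are shares of 20% each, beside 20.7% and 15.3% of all genes tested. Without the 2 libraries that stood apart 4 class I genes were higher and 10 lower.

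NADPH oxidase and antioxidant genes were split, with 12 higher and 9 lower of 26, by both tests (median 0.34). Cybb and Ncf1, subunits of the oxidase that makes superoxide against microbes, were lower. Cybb ran from 135 to 238 TPM in macrophages and from 996 to 1109 TPM in monocytes, and Ncf1 from 3.17 to 34.9 TPM against 49.0 to 352 TPM. The metallothionein Mt1, which binds zinc and copper, was higher, at 423 to 717 TPM against 27.4 to 78.1 TPM, as was Gclm, a subunit of the enzyme that limits glutathione synthesis, at 8.43 to 25.2 TPM against 0.681 to 1.57 TPM. Antioxidant enzymes lay on both sides, since Gsr, Prdx5, Prdx6 and Gpx1 were lower in macrophages and Cat, Txnrd1 and Prdx1 higher. Glycolysis genes were lower in 14 and higher in 2 of 26, by both tests (median -1.10). Pkm was at 88.4 to 132 TPM against 306 to 621 TPM. The lactate exporter Slc16a3 was at 0.602 to 2.43 TPM against 9.65 to 200 TPM, and its relative Slc16a1 was 8.11-fold higher in macrophages. Nuclear-encoded genes of the respiratory chain were higher in 4 and lower in 6 of 58, by both tests (median -0.02), and higher in 8 and lower in 11 without the 2 libraries that stood apart.

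Cytosolic ribosomal protein genes were lower in 43 and higher in 2 of 76 tested (edgeR 41 and 1; median -0.79), and lower in 59 without the 2 libraries that stood apart. One of these, Ly6Clo replicate 2, summed to 11073 TPM, inside the macrophage range of 8270 to 13148 TPM, and the other monocyte libraries to 19042 to 21264 TPM. Rps14 ran from 402 to 563 TPM in macrophages and from 1005 to 1382 TPM in monocytes. Ribosomal genes have many processed copies in the genome, and their counts are uncertain. In the Bcl2 family 3 were higher and 7 lower of 17 (edgeR 3 and 6; median -0.31). Mcl1 and Bcl2, which hold back cell death, were 2.81-fold and 5.18-fold lower in macrophages, and Bcl2l1, of the same role, was 1.84-fold higher.

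**Figure D3:**
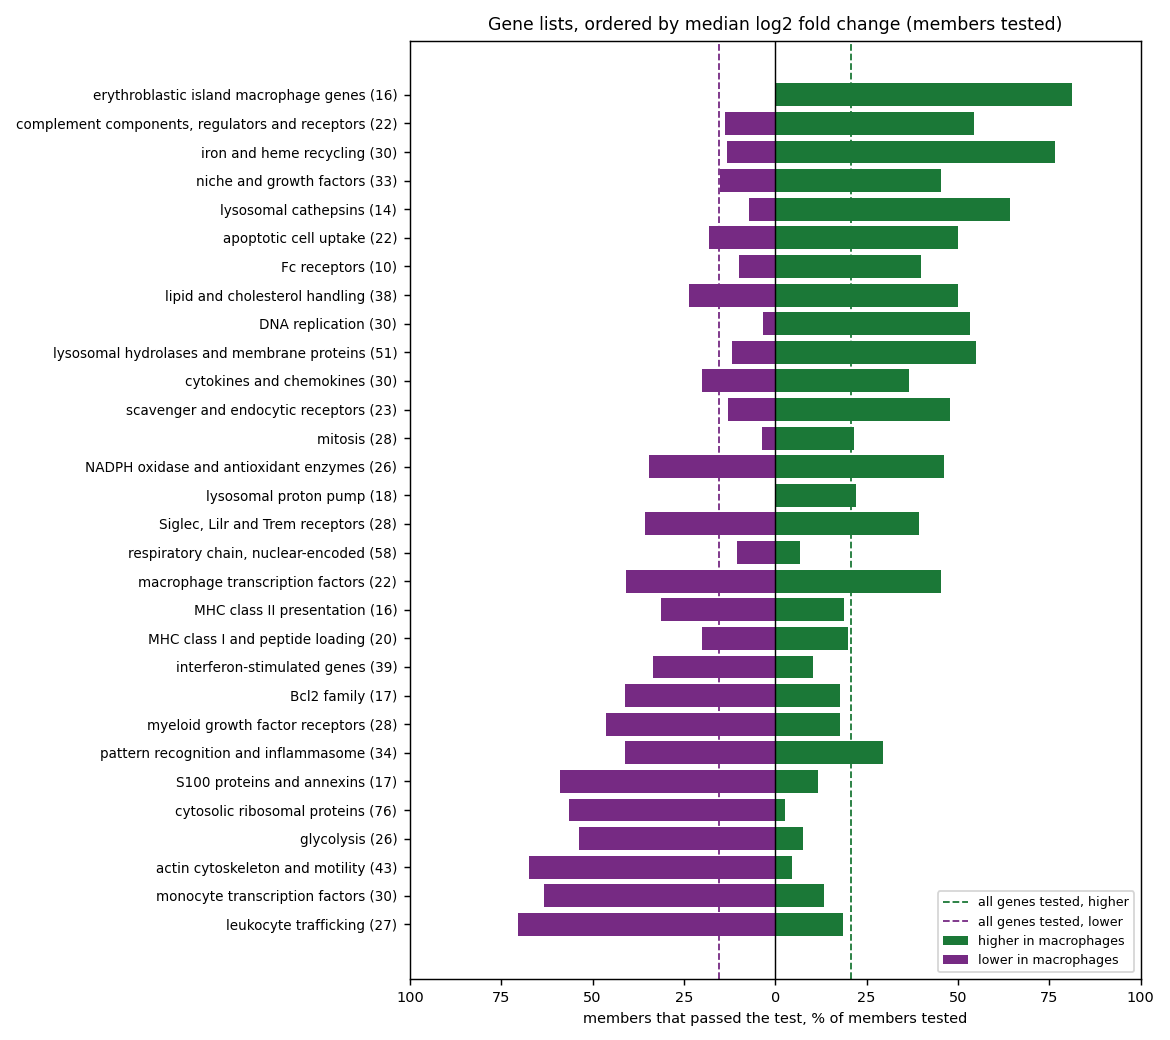
Percent of the tested members of each gene list that were higher (right) or lower (left) in macrophages, ordered by median log2 fold change; numbers in brackets are members tested, and dashed lines mark the shares among all genes tested (20.7% and 15.3%). Erythroblastic island and complement lists lie at the top and trafficking, monocyte transcription factor and actin lists at the bottom.

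Pairs of related genes, or of a ligand and its receptor, were compared within each library as log2[(TPM + 1) of the first over the second]. Macrophage and monocyte libraries lay on opposite sides of 0 for the pair Ms4a7 and Ms4a6c, related genes of a membrane protein family, with 2.75 to 3.56 in macrophages and -5.03 to -1.73 in monocytes. They did so too for Maf over Cebpb (1.47 to 4.89 against -2.00 to -0.62) and Siglec1 over Spn (3.16 to 7.31 against -4.31 to -0.06). Pecam1 over Cd38, the latter an ectoenzyme that degrades NAD, was reversed (-3.40 to -2.52 in macrophages against 1.35 to 4.26 in monocytes). For Fcna over Fcnb, the 2 ficolin genes, macrophages lay at 8.97 to 12.9, Ly6Chi monocytes below 0 and Ly6Clo monocytes above 0 (up to 5.80).

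**Figure D4:**
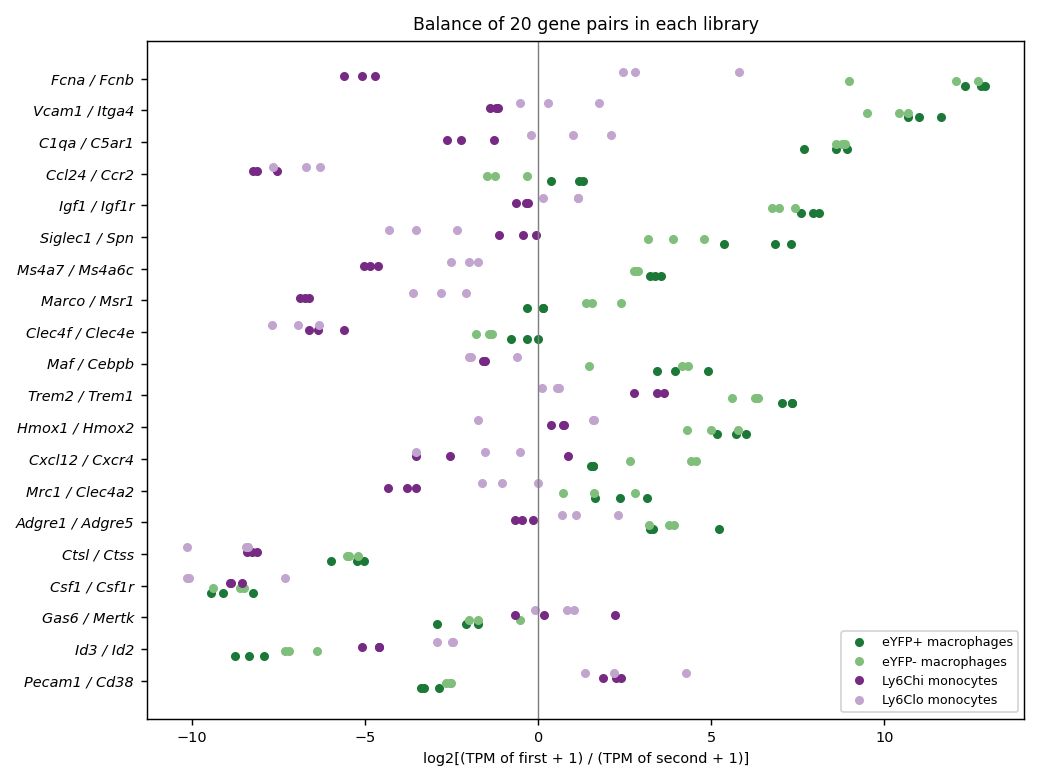
Balance of 20 gene pairs in each library, as log2[(TPM of first + 1)/(TPM of second + 1)] on the horizontal axis; points are libraries coloured by group and 0 is an equal level. Macrophages and monocytes lie apart for Ms4a7 over Ms4a6c (2.75 to 3.56 and -5.03 to -1.73) and overlap for Csf1 over Csf1r.

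Markers of other marrow cells are given for every list, and their counts are to be read against the 20.7% higher and 15.3% lower of all genes tested. All 21 tested erythroid markers were higher in macrophages. Their summed level was 9041 to 15142 TPM in eYFP+ macrophages, 23325 to 37411 TPM in eYFP- macrophages and 404 to 1449 TPM in monocytes, and no marker was at 0 throughout a group. Hba-a1 alone ran from 3770 to 18499 TPM in macrophages and from 158 to 590 TPM in monocytes, its reads being shared with the near-identical Hba-a2. Whether red cell precursors were attached to the sorted macrophages was not tested, nor was the part of red cell RNA in the results above, among them Klf1. Of 30 DNA replication genes 16 were higher and 1 lower (edgeR 15 and 1; median 0.82), and 1 was higher in all 4 pairwise comparisons, against 18 of the 21 erythroid markers. The replication genes summed to 496 to 684 TPM in eYFP+ and 1131 to 1805 TPM in eYFP- macrophages, against 466 to 564 TPM in monocytes, so that eYFP+ and monocyte libraries overlapped and eYFP- libraries lay above both. Mitosis genes were higher in 6 and lower in 1 of 28 (edgeR 4 and 1; median 0.44), a share of 21.4% higher beside 20.7% of all genes tested, and 0 were higher in all 4 comparisons by DESeq2. Their sums were 199 to 350.5 TPM in eYFP+ macrophages, 682 to 987 TPM in eYFP- macrophages, 383 to 472 TPM in Ly6Chi and 293 to 310 TPM in Ly6Clo monocytes. Mki67 did not pass (1.69 to 10.7 TPM against 1.02 to 6.56 TPM, DESeq2 adjusted p = 0.21). The part of precursor cells in these values was not tested.

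Neutrophil and precursor markers were lower in macrophages in 15 of 20, by both tests. Summed levels were 21142 to 28128 TPM in Ly6Chi monocytes, 7134 to 17538 TPM in Ly6Clo monocytes and 168 to 2933 TPM in macrophages, or at most 966 TPM without eYFP- replicate 2. S100a8 and S100a9 are on this list and are also genes of Ly6Chi monocytes, whereas Ngp and Ltf belong to neutrophil granules. Ngp ran from 1401 to 3087 TPM in monocytes and from 6.31 to 313 TPM in macrophages, and Ltf from 177 to 725 TPM against 0 to 78.1 TPM. By the study's gating, monocytes came from Gr1-low cells and were separated by scatter. Whether granule transcripts in the monocyte libraries came from other cells was not tested.

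T and NK cell markers were higher in macrophages in 9 of 16 and lower in 1 (edgeR 7 and 1), with 146 to 283 TPM in sum against 33.1 to 126 TPM. Cd4 alone was at 71.5 to 227 TPM, and Cd3e was at 0.0895 to 0.585 TPM. Megakaryocyte and platelet markers were higher in 7 and lower in 2 of 12, by both tests, at 181 to 389 TPM against 47.1 to 159 TPM. Clec1b, a receptor of platelets, ran from 57.5 to 187 TPM and Ppbp, an abundant platelet transcript, from 0 to 2.94 TPM in macrophages. Markers of eosinophils, basophils and mast cells were higher in 4 of 14, by both tests, at 1525 to 3084 TPM against 137 to 2494 TPM, the macrophage maximum being 1823 TPM without eYFP- replicate 3. Ccr3, the eosinophil chemokine receptor, ran from 613 to 1167 TPM in macrophages and from 0.391 to 8.29 TPM in monocytes, while the eosinophil granule gene Epx did not pass (0.152 to 54.3 TPM against 0 to 34.9 TPM).

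B and plasma cell markers were higher in 2 and lower in 1 of 13, by both tests, at 489 to 727 TPM in macrophages against 546 to 1475 TPM in monocytes (at most 813 TPM without Ly6Clo replicate 2). Cd79b ran from 449 to 701 TPM in macrophages and from 28.1 to 136 TPM in monocytes, and Ighm from 12.9 to 51.1 TPM against 516 to 1326 TPM. Dendritic cell markers were higher in 4 and lower in 2 of 13, by both tests, at 451 to 599.6 TPM against 497 to 3091 TPM (at most 1027 TPM without the same library), and Cd209a was at 0 to 3.95 TPM in macrophages against 88.9 to 2820 TPM in monocytes. Stem and progenitor markers were higher in 2 and lower in 3 of 14 (edgeR 2 and 2), at 18.5 to 149 TPM against 61.5 to 139 TPM. These were shares of 14.3% and 21.4%. Stromal, bone and endothelial markers were higher in 6 and lower in 2 of 18 (edgeR 6 and 1), at 62.4 to 186 TPM against 9.40 to 137 TPM. With the replicate number as a block 10 of this list were higher and 1 lower. Osteoclast markers were higher in 1, Acp5, and lower in 5 of 11, by both tests, at 614 to 746 TPM against 266 to 896 TPM.

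**Figure D5:**
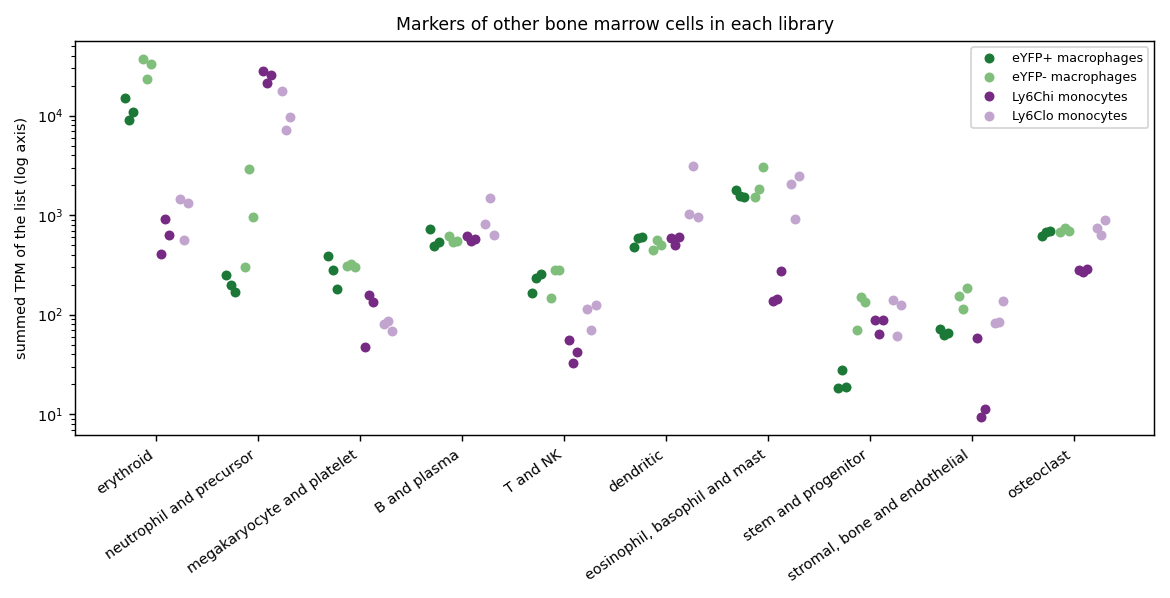
Summed TPM (log axis) of marker lists of other bone marrow cells; each point is a library, coloured by group. Erythroid markers sum to 9041 to 37411 TPM in macrophages and 404 to 1449 TPM in monocytes, and neutrophil markers to 168 to 2933 TPM and 7134 to 28128 TPM.

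Promoter windows were searched for 5 motifs, with no test of the differences in their shares. The motif GAGGAAGT, which PU.1 binds, stood in 7.70% of 714 genes lower in macrophages in all 4 pairwise comparisons, against 3.94% of 1143 genes higher in all 4, 3.86% of 12528 genes tested and 3.69% of 27025 genes. The motif TGCTGAC, part of the site of Maf proteins, stood in 5.18% of the genes lower in all 4, 5.51% of those higher and 4.72% of genes tested. In the same order the Klf motif CCACACCC stood in 6.44%, 4.37% and 4.63%, the Mitf and Tfe motif TCACGTG in 5.74%, 6.30% and 6.39%, and the C/EBP motif TTGCGCAA in 0.140%, 0.175% and 0.311%. Both strands were searched, the shares are descriptions and a match is no evidence of binding. Ly6c2 encodes a gated protein and had no DESeq2 adjusted p, and S100a8 is also on the list of neutrophil and precursor markers. Upstream stretches of S100a8 and Ly6c2, which are high in monocytes, and of Fcna and Timd4, which are high in macrophages, show the motifs in capitals.
S100a8, chr3:90668869-90668936, plus strand: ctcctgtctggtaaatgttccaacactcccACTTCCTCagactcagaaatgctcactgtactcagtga
Ly6c2, chr15:75112042-75112109, minus strand: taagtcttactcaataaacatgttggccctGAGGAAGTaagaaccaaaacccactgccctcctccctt
Fcna, chr2:25628045-25628111, minus strand: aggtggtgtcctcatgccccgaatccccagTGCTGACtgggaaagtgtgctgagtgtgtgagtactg
Timd4, chr11:46810724-46810790, plus strand: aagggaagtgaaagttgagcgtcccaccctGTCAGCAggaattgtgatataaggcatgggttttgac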

How the data were processed

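Polyadenylated RNA of sorted bone marrow cells was amplified as whole-transcript cDNA and read from both ends. As the study's methods describe, reads were trimmed, error-corrected, cleared of ribosomal RNA, aligned with segemehl to GRCm39 and counted per gene of Ensembl with featureCounts; the strand setting is not given in the sources used here. The authors deposited counts (whole read pairs per gene, not normalized) and TPM (counts divided by gene length and scaled to a fixed sum per library). A deposited table of variance-stabilised values was not used here. Reads are not independent molecules, because no molecular identifiers were described.

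All 12 libraries entered 1 DESeq2 fit on the deposited counts, with the group as the only factor and median-of-ratios size factors (DESeq2 1.42.0, R 4.3.3). The 2 macrophage groups, averaged, were set against the 2 monocyte groups, averaged, by a two-sided Wald test with Benjamini-Hochberg adjusted p under 0.05 over all genes. The 4 pairwise contrasts came from the same fit. Fold changes are unshrunken; none is given for a gene at 0 throughout a group unless its mean is carried by the other group of that cell type. edgeR 4.0.16 (quasi-likelihood), limma 3.58.1 on log2(TPM + 1) or log2(TPM + 0.1), other scalings and filters, the replicate number as a block, and leaving out libraries were alternatives. edgeR's counts are printed beside those of DESeq2. Over a list they may include members to which DESeq2 gave no adjusted p. Symbols came from GENCODE M21 and covered 91.4% of 56953 genes; its build differs from the authors', so its coordinates were not used.

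Members, lists and pairs were chosen with earlier results of these data known. The 10 genes with the highest TPM in each direction were named among those called in all 4 pairwise comparisons. A limit of at least 4-fold was set on the averaged comparison of the cell types only. Also named were the 5 in each direction with the lowest adjusted p and no overlap, and the sorting markers. The largest changes of each of 41 lists and 20 gene pairs were named too. Other list members are named for their role. Promoter windows and their coordinates are RefSeq's (GRCm38.p6), and promoter counts are over genes whose symbol has a window. Some members of these lists are not reported here by name.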

Additional observations from a re-analysis of the deposited data

How the results depend on the processing

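Under the alternatives run, no gene called higher or lower was called in the opposite direction. Of 162 counts of genes, 145 stayed within 1.5 times the main count. Genes higher in all 4 pairwise comparisons (1717) numbered 1113 by edgeR with the replicate number as a block; those lower (1147) numbered 751 in that fit, 750 by limma on log2(TPM + 0.1) and 1891 without Ly6Clo replicate 2 and eYFP+ replicate 1. Without these 2 libraries 5156 genes were higher and 4367 lower in all, of which 4208 and 3200 were among the original calls. Leaving out 1 library at a time gave 3794 to 5039 genes higher and 2794 to 4118 lower, 6588 to 9157 in sum, 1386 to 2068 higher and 918 to 1646 lower in all 4 comparisons.

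Differences within a cell type depended more on the test. Between the monocyte groups (1870 genes) edgeR called 829, limma 1051 and 1112 on log2(TPM + 0.1) and log2(TPM + 1), edgeR with the block 537, and fits without 1 library 1208 to 2496. Between the macrophage groups (439 genes) edgeR called 64, limma on log2(TPM + 0.1) 188, edgeR with the block 24, DESeq2 with the block 1178, the fit without the 2 libraries 995, and fits without 1 library 228 to 873. The cause was not tested. Same-numbered libraries of different groups had correlations of their deviations from -0.586 to 0.392. The 3 pairs of the macrophage groups had 0.392, 0.212 and 0.071, of which the last is under the 0.1 asked of every pair, so pairing was not assumed but remains possible for these 2 groups. The block gives 4491 genes higher and 3360 lower between the cell types.

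Of the named genes, Cd68, Ccl24 and Cebpb lost their call in some alternatives, and Csf1r, Ctss, Cxcl12, Msr1, Itgam and Ly6c2 gained one. The last 2 had no DESeq2 adjusted p because of an extreme count. List medians changed sign in some settings for MHC class II presentation, macrophage transcription factors, B and plasma cells, stem and progenitor cells, and the respiratory chain. Depth limits genes near 0 TPM in a cell type: their folds rest on few reads.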

Other observations

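Several genes known from other lineages were higher in macrophages than in monocytes, and the part of other cells in their levels was not tested. By list, with these genes included and by DESeq2, 7 of 12 platelet markers were higher and 2 lower (median log2 fold change 2.84), 9 of 16 T and NK markers higher and 1 lower (2.76), 4 of 14 eosinophil, basophil and mast markers higher and 0 lower (1.93; edgeR 4 and 0), and 2 of 13 B and plasma markers higher and 1 lower (1.20). Ccr3 ran from 613 to 1167 TPM in macrophages and Epx, of eosinophil granules, from 0.152 to 54.3 TPM (median 0.507). Cd4 ran from 71.5 to 227 TPM beside 0.0895 to 0.585 TPM of Cd3e, and Cd79b from 449 to 701 TPM beside 12.9 to 51.1 TPM of Ighm. Clec1b ran from 57.5 to 187 TPM beside 0 to 2.94 TPM of Ppbp. Ccr3, Clec1b and Cd79b were higher in macrophages than in monocytes by 8.35 ± 0.27, 6.11 ± 0.45 and 3.32 ± 0.30 on the log2 scale (SE; edgeR adjusted p = 1.8e-08, 3.6e-06 and 3.4e-06), in 6 of 6 libraries each.

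The mean of Ly6Clo monocytes lay at different distances from those of Ly6Chi monocytes and macrophages, depending on the gene. Fabp4, a fatty acid carrier, averaged 4.35 TPM in Ly6Chi, 321 TPM in Ly6Clo, 598 TPM in eYFP- and 677 TPM in eYFP+ libraries, and Tcf7l2 averaged 4.11, 310, 383 and 534 TPM in the same order. Treml4 averaged 75.2 TPM in Ly6Chi and 1141 TPM in Ly6Clo libraries, the latter above the means of 663 and 777 TPM in the eYFP- and eYFP+ macrophages. Igf1 averaged 0.669 and 4.28 TPM in Ly6Chi and Ly6Clo libraries against 230 and 320 TPM in the macrophage groups.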
